A study of Mus musculus with 18 samples.

Results

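Protein disulfide isomerases and ER oxidases make and rearrange the disulfide bonds of proteins that enter the secretory pathway. The genes of this kind followed here were chosen by name, P4hb, Pdia3, Pdia4, Pdia6, Txndc5, Dnajc10, Ero1a, Ero1b, Tmx1 and Creld2. They were 10 of the 17207 genes with a read in any library, and all 10 were among the 7794 genes with at least 1 read in each of the 18 libraries, which were the genes tested. The cells were MIN6, a mouse insulinoma line that makes and secretes insulin. They were exposed to 200 µM cyclopiazonic acid (CPA), an inhibitor of the pump that refills the ER with calcium, for 1 h (CPA1) or 18 h (CPA18), and the control cells received DMSO for 18 h, so that no vehicle sample matched the 1 h exposure in time. Each of the 3 treatments was measured in 3 independent experiments by mRNA-seq of fragmented poly(A) RNA and by Ribo-seq, the sequencing of RNA fragments protected by ribosomes.

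The ER lumen is kept oxidising so that cysteines can pair. Isomerases of the thioredoxin fold pass disulfides to the folding client and are reoxidised by the flavoproteins Ero1a and Ero1b, which hand the electrons to oxygen. Proinsulin needs correctly paired disulfides to fold, and Ero1b is the oxidase known to be enriched in the pancreas. Genes for ER folding factors are classical targets of the unfolded protein response.

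Library totals ran from 520960 to 4755030 reads in mRNA-seq and from 168129 to 1083297 in Ribo-seq, and the lowest in each assay came from experiment 1. All 11 beta cell markers that were looked up had reads, and 8 of 11 markers of other cells had a row. The latter summed to 40 to 116 RPKM in the control mRNA-seq libraries and to 24.3 to 91.5 RPKM at CPA18, most of it from Gcg, the glucagon gene (39.7 to 108 RPKM in the controls), and the part of such cells in any result was not tested. Insulin reads fell with the treatment, which changes every level expressed per total read. Ins2 was at 116317, 365226 and 307204 RPKM in the control mRNA-seq libraries and at 26417, 90251 and 92194 at CPA18. The ER chaperone gene Hspa5 changed by 1.83 ± 0.25 on the log2 scale in mRNA-seq at CPA18 (± SE, edgeR, adjusted p = 2.3e-09). With library totals as the scale, the median tested gene moved by 0.36 (log2) in mRNA-seq and 0.39 in Ribo-seq at CPA18, by -0.12 and 0.07 at CPA1, and by 0.48 and 0.31 between CPA1 and CPA18, so changes are also given relative to these medians. The control libraries of experiment 2 carry titles and descriptions that name different assays, and were placed by their titles. In bulk samples fewer cells of a type and less RNA per cell cannot be told apart.

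Levels are in RPKM, reads per kilobase of transcript scaled to the library total, and are listed in the order of experiments 1, 2 and 3. P4hb was the most abundant of the 10 transcripts in untreated cells, at 659 ± 259 RPKM in mRNA-seq (mean ± SD, n = 3), followed by Pdia6 at 363 ± 131. These top 2 overlapped each other. All 3 Pdia6 libraries lay above every Ero1b library, the next in order at 138 ± 55.5. Pdia4, Pdia3, Creld2, Tmx1 and Txndc5 followed with means from 127 down to 62.3, and each overlapped its neighbour in the order. Dnajc10 (9.41 ± 4.19) and Ero1a (7.66 ± 4.38) were lowest, overlapped each other, and lay below every Txndc5 library. P4hb stood at the 99th percentile of the tested genes by control mRNA level and Ero1a at the 45.6th. In Ribo-seq, Pdia3 moved up to the third place at 602 ± 100.2 RPKM, above every library of Pdia4 at 176 ± 47.7.

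**Figure D1:**
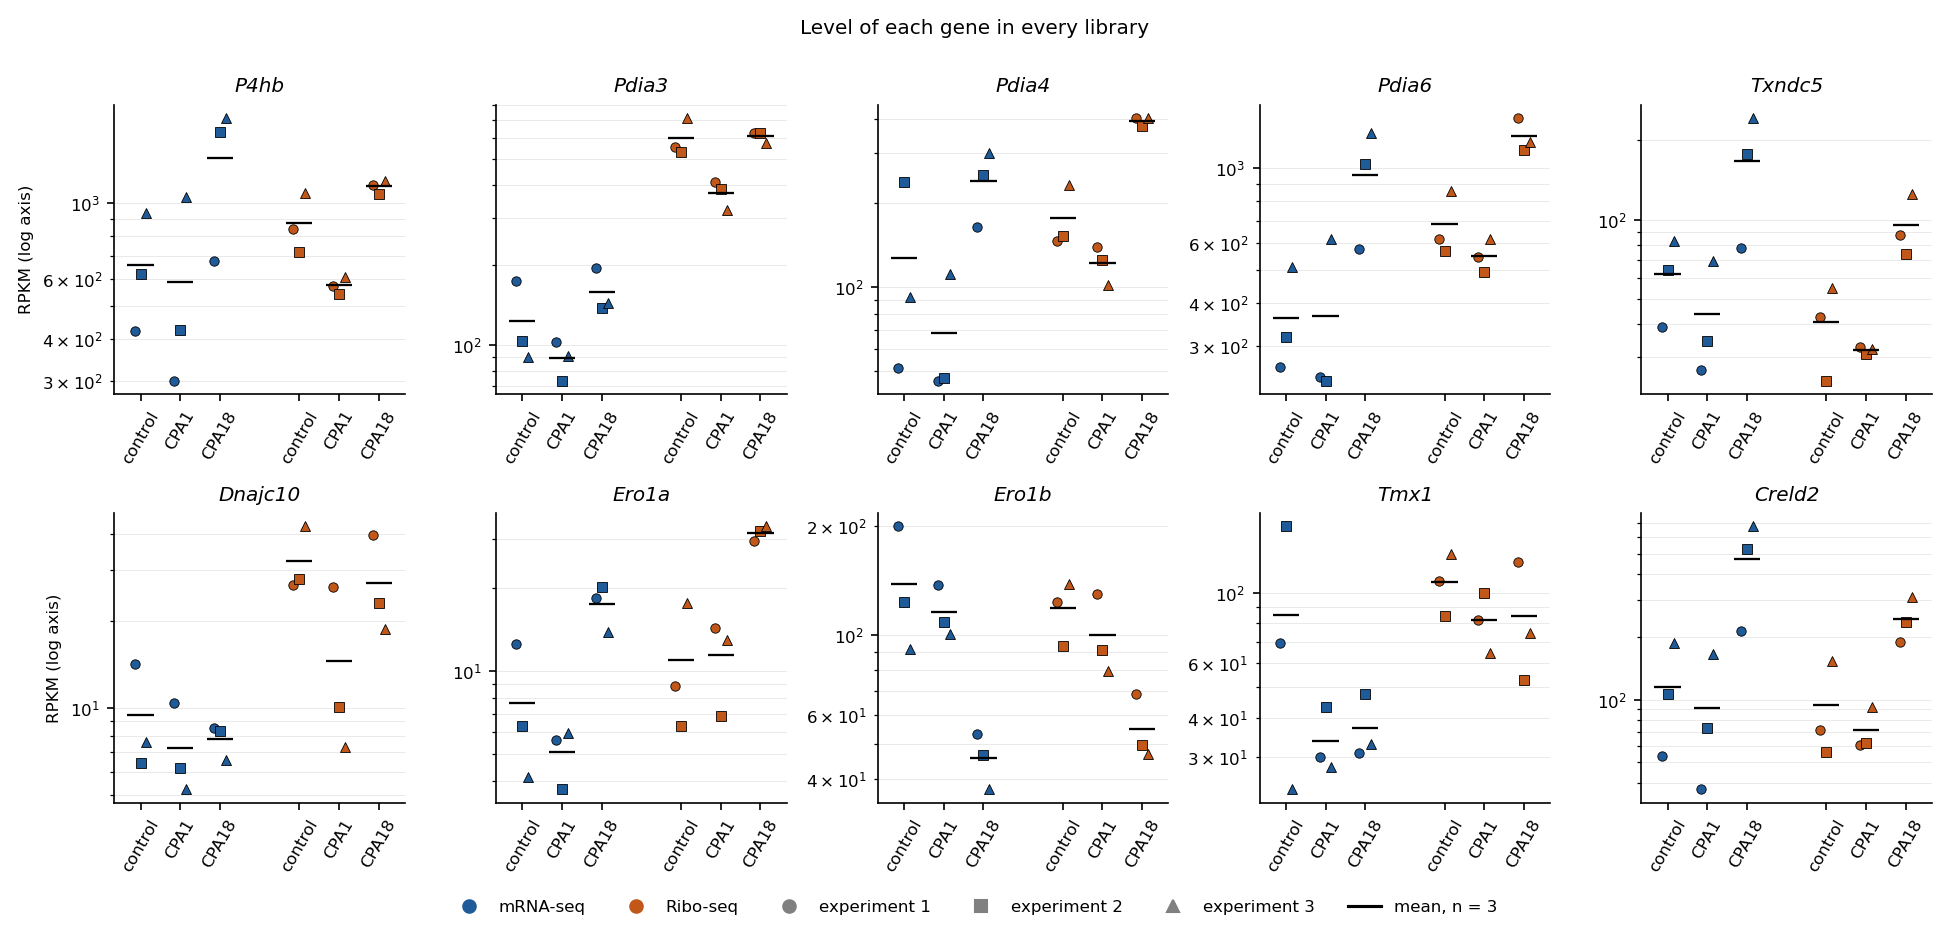
RPKM (log axis, scaled for each gene) of the 10 genes in every library, mRNA-seq in blue and Ribo-seq in orange, with 1 symbol for each experiment and a bar at the mean of 3. Ero1b is the gene whose 3 CPA18 libraries lie below all controls in both assays, and Pdia4 and Tmx1 each have 1 high control mRNA-seq library, that of experiment 2.

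The first question was what 18 h of stress did to these genes. In mRNA-seq, 6 of the 10 rose against control (P4hb, Pdia4, Pdia6, Txndc5, Ero1a and Creld2), 2 fell (Ero1b and Tmx1) and 2 did not pass (Pdia3 and Dnajc10; edgeR quasi-likelihood test, Benjamini-Hochberg adjusted p under 0.05 over 7794 genes). Of all tested genes 33.6% passed, 25.9% higher and 7.69% lower. The median change of the 10 was 1.02 against 0.36 for all tested genes. With TMM, a scaling that centres the bulk of the genes, the calls over all genes were 1048 higher and 1404 lower against 2018 and 599 here (886 and 950 against 1914 and 495 in Ribo-seq), and 5 of the 10 rose and 2 fell in mRNA-seq, and 5 rose and 3 fell in Ribo-seq. In Ribo-seq, 6 rose, 1 fell and 3 did not pass, beside 30.9% of all genes, 24.6% higher and 6.35% lower. The median of the 10 there was 0.62 against 0.39. All CPA18 libraries lay above all controls for Pdia6, Ero1a and Creld2 in mRNA-seq (14.8% of all genes) and for these, Pdia4 and Txndc5 in Ribo-seq (29%). Ero1b lay below in both (5.34% and 8.99% of all genes). These fits hold the experiment as a block. Without it, none of the 10 passed in mRNA-seq at CPA18 (adjusted p from 0.099 to 0.81, edgeR, with 1.98% of all genes passing), while 6 still passed in Ribo-seq, where 25.1% of all genes did.

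**Figure D2:**
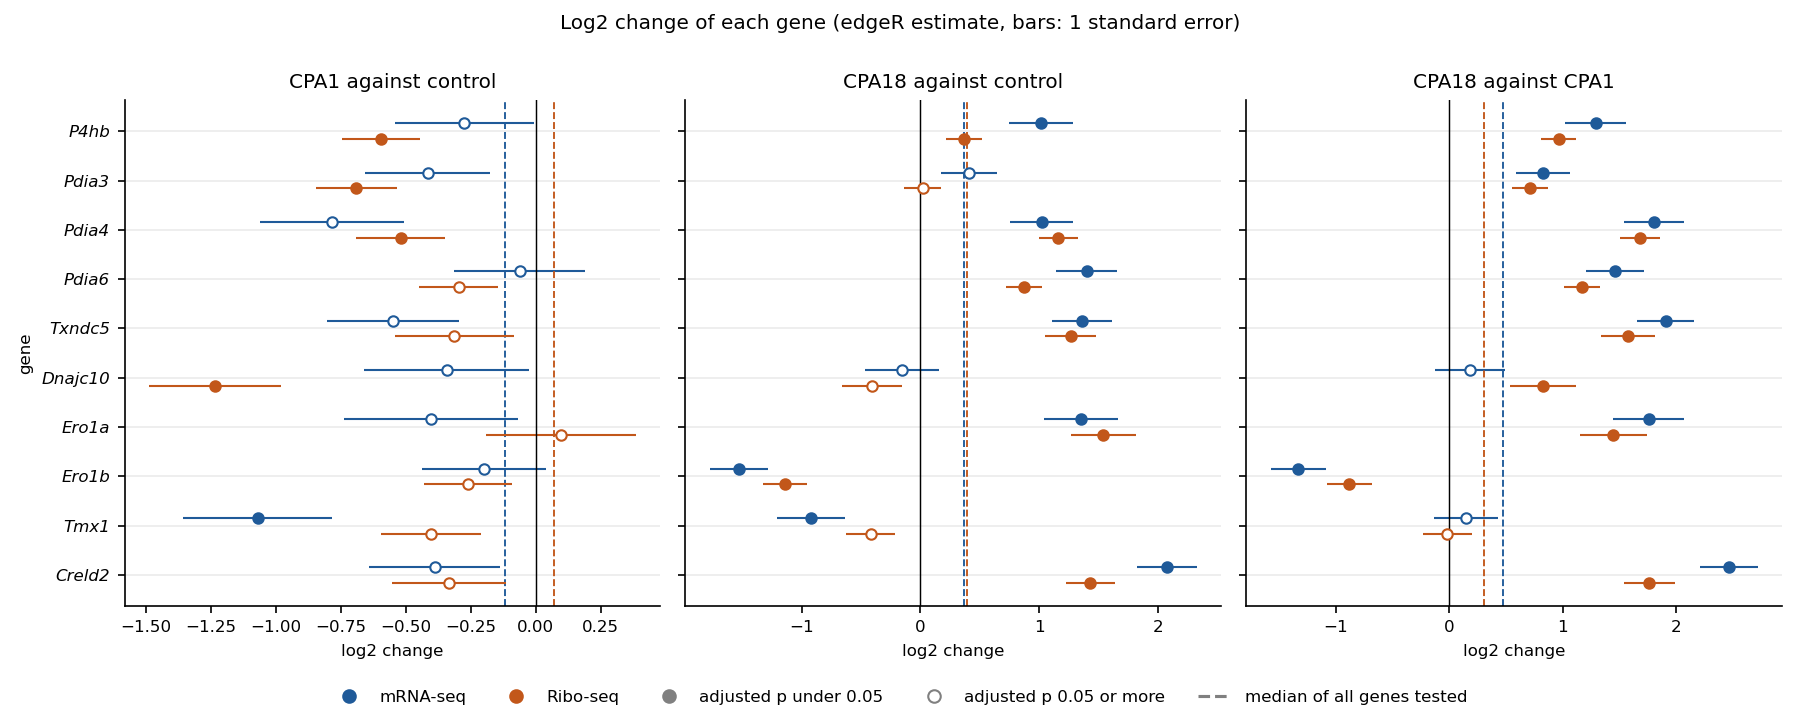
Log2 change of each gene in the 3 comparisons, mRNA-seq in blue and Ribo-seq in orange, with bars of 1 standard error, filled symbols for an adjusted p under 0.05 and dashed lines at the median of all tested genes. Creld2 changed most at CPA18 in mRNA-seq (2.08), and Ero1b lies to the left of 0 in both assays at CPA18.

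Promoters were searched for the sequence elements known for ER stress genes, since P4hb, Pdia6, Txndc5 and Creld2 had similar mRNA profiles over the libraries. The pairwise Pearson r of these genes ran from 0.96 to 0.98, over treatments and experiments together. Such likeness was not particular to them, and P4hb followed the proteasome gene Psma5 more closely (r = 0.996). Pdia4 followed P4hb, Pdia6, Txndc5 and Creld2 less closely (Pearson r from 0.80 to 0.88), and Pdia3 and Ero1a had an r of 0.91 with each other. The windows were those of RefSeq on GRCm38.p6, 250 bases before to 50 after a start, and all 10 genes had at least 1. The ER stress response element (CCAAT and CCACG separated by 9 bases of any kind, searched on both strands) was found in Pdia6, Creld2 and Ero1b, and in 0.119% of all 32851 windows. It was present at 2 genes that rose and at the gene that fell in both assays at CPA18. P4hb and Txndc5 had no match to it. The matches are shown 5′ to 3′ on the strand of the gene with 5 flanking bases in lower case, the element in capitals, and in Creld2 and Ero1b it reads on the opposite strand.
Pdia6, chr12:17266486-17266514: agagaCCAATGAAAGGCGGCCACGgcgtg
Creld2, chr15:88819515-88819543: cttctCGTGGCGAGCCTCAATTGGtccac
Ero1b, chr13:12565677-12565705: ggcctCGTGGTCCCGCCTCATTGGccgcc
Txndc5 held the element TGACGTGG (0.676% of windows) and, before another of its starts, TGATGNAA (3.97%). The second form of the stress element, ATTGG and CCACG separated by 1 base (0.0365% of windows), was in no window of the 10 genes. A match is a description of the letters, not of a site that is used.

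P4hb (chromosome 11, 120560298 to 120573253 in the GRCm38.p6 annotation of RefSeq) encodes the prototype isomerase, which is also a subunit of prolyl 4-hydroxylase. Its mRNA stood at 423, 619 and 937 RPKM in the control libraries and at 674, 1621 and 1782 at CPA18. Each experiment was higher at CPA18, but the CPA18 level of experiment 1 lay within the control range, and experiment 1 was lowest in every treatment. The change was 1.01 ± 0.27 (2.02-fold; adjusted p = 0.0019, edgeR with Benjamini-Hochberg), or 0.65 above the median gene, and the adjusted p was 0.056 without experiment 3 and likewise without the control of experiment 2. Ribosome-protected reads went from 839.6, 718 and 1070.0 to 1133, 1067 and 1166. That was 0.37 ± 0.15 (adjusted p = 0.048, edgeR), level with the median gene (-0.019). This call was lost under 9 of 12 alternative settings, among them TMM scaling, where the change was 0.0086.

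Pdia6 (chromosome 12, 17266589 to 17284785) encodes an isomerase that binds the chaperone BiP and takes part in switching off the stress sensor IRE1. The mRNA levels were 260.3, 318 and 511 RPKM in control cells and 579, 1025 and 1266 at CPA18, with no overlap. It rose by 1.40 ± 0.26 (2.64-fold, adjusted p = 6.6e-06, edgeR). In Ribo-seq the controls read 619, 571 and 859 and the CPA18 libraries 1406, 1127 and 1189.8, again apart, a rise of 0.87 ± 0.15 (adjusted p = 4.8e-07, edgeR). In all 3 CPA18 Ribo-seq libraries Pdia6 lay above P4hb, an order seen in 1 of the other 15 libraries, the CPA1 Ribo-seq library of experiment 3 (617 against 606 RPKM).

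Txndc5 (chromosome 13, 38500266 to 38528824), a thioredoxin-domain protein that introduces disulfides rapidly, had 39.2, 64.6 and 83.1 RPKM in the control mRNA-seq libraries and 78.2, 178 and 244 at CPA18. Only the CPA18 library of experiment 1 reached down into the control range. The rise was 1.36 ± 0.25 in mRNA-seq (adjusted p = 7.9e-06, edgeR). In Ribo-seq it was 1.26 ± 0.22 (adjusted p = 2.4e-07, edgeR), from 42.8, 24.4 and 54.9 to 87.7, 74.4 and 125 RPKM without overlap. Txndc5, like Creld2 and P4hb, had its lowest mRNA level in experiment 1 and its highest in experiment 3 under each treatment.

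Pdia4 (chromosome 6, 47796141 to 47813512) encodes a large isomerase with several thioredoxin domains. Its control mRNA libraries read 51.1, 237 and 92.0 RPKM and the CPA18 libraries 163, 252 and 301. The control of experiment 2 stood apart. Of its 2 annotated transcripts, NM_009787.2 had 876 reads in that library and NM_001368756.1 had 142. The first thus held 86.1% of the reads, against 47.0% to 66.5% in the other 17 libraries. The summed gene rose by 1.02 ± 0.27 (adjusted p = 0.0018, edgeR), by 1.84 without the controls of experiment 2, and by 1.77 when only NM_001368756.1 was counted, an alternative added after the counts had been seen. On that transcript alone the levels were 23.1, 32.5 and 41.9 RPKM in control cells and 76.1, 109.5 and 149 at CPA18, without overlap. The call for the summed gene was lost under 6 of 12 alternative settings, among them TMM (adjusted p = 0.19, edgeR) and leaving out experiment 1 (0.14) or 3 (0.20). Ribo-seq gave 146, 152 and 231 RPKM in control cells and 400.5, 378 and 403 at CPA18, a rise of 1.16 ± 0.17 (adjusted p = 2.4e-10, edgeR).

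**Figure D3:**
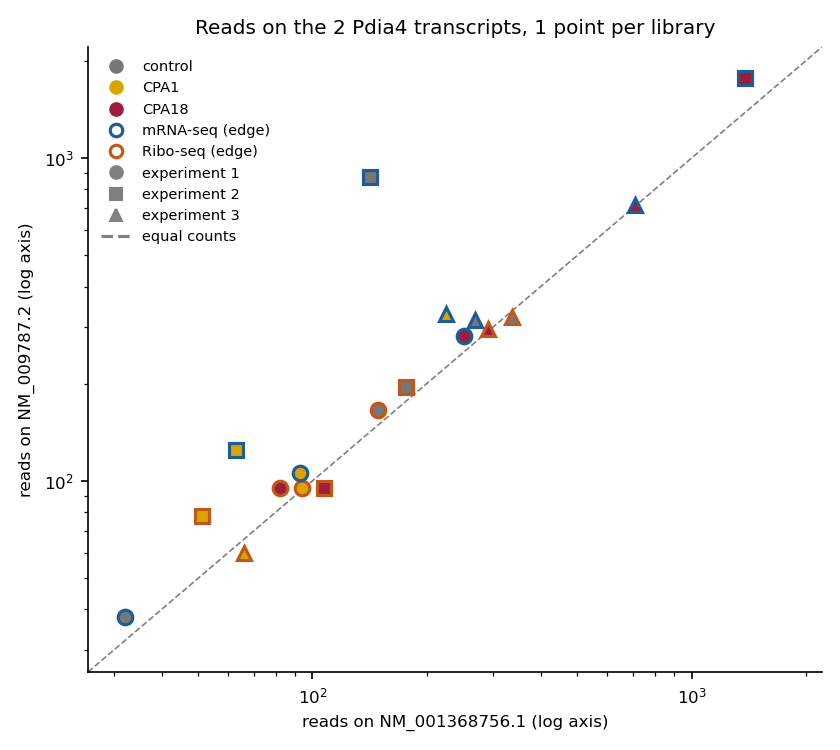
Reads assigned to the 2 annotated Pdia4 transcripts (both axes log), 1 point for each of the 18 libraries, with fill for the treatment, edge for the assay and symbol for the experiment. The control mRNA-seq library of experiment 2, at 142 and 876 reads, lies away from the line of equal counts that the others follow.

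Creld2 (chromosome 15, 88819646 to 88826681), a stress-inducible ER protein that is partly secreted, changed most of the 10 in mRNA-seq. It went from 53.5, 106 and 186 RPKM to 214, 527 and 675. The groups did not overlap. The rise was 2.08 ± 0.25 (4.21-fold, adjusted p = 5.6e-11, edgeR), 1.71 above the median gene. Ribo-seq rose by 1.43 ± 0.21 (adjusted p = 4.4e-10, edgeR), from 71.4, 56.0 and 154 to 188, 235 and 309.8 RPKM.

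Pdia3 (chromosome 2, 121413902 to 121438687), the isomerase that works with the lectin chaperones on glycoproteins, did not pass in either assay. Its mRNA read 174, 104 and 90.5 RPKM in control cells and 195, 137 and 144 at CPA18 (0.41 ± 0.24, 95% interval -0.058 to 0.87). Its footprints read 556, 533 and 717 and 629, 628 and 575 (0.018 ± 0.15, interval -0.29 to 0.32), and with TMM the estimate turned to -0.34. Dnajc10 (chromosome 2, 80315446 to 80354055), a reductase that opens disulfides of misfolded clients together with BiP, also stayed short of the threshold. Its mRNA was at 14.2, 6.45 and 7.58 and then 8.54, 8.30 and 6.58 RPKM, a difference of -0.16 ± 0.31 with an interval of -0.77 to 0.45. In Ribo-seq the difference was -0.41 ± 0.25 (-0.91 to 0.088), and it passed as a fall of -0.77 with TMM (adjusted p = 0.011, edgeR).

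Tmx1 (chromosome 12, 70453154 to 70467624) encodes an isomerase anchored in the ER membrane. Its control mRNA libraries read 69.1, 163 and 23.7 RPKM, and all CPA18 libraries lay inside that range at 31, 47.7 and 33.1. The fitted fall of -0.92 ± 0.28 (adjusted p = 0.0079, edgeR) rested on the control library of experiment 2, without which it was -0.35 (adjusted p = 0.51). Experiment 3 moved the other way. In Ribo-seq Tmx1 read 109, 84.1 and 133 RPKM in control cells and 126, 52.9 and 74.7 at CPA18. The difference of -0.42 ± 0.20 did not pass (adjusted p = 0.10, edgeR) but did under TMM (-0.78, adjusted p = 9.6e-04).

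The oxidases moved in opposite directions. Ero1a (chromosome 14, 45283087 to 45318572), the widely expressed paralog, had 12.6, 6.31 and 4.12 RPKM in control mRNA-seq and 18.3, 20.2 and 13.8 at CPA18. Every CPA18 library was above every control. It rose by 1.35 ± 0.31 (2.55-fold, adjusted p = 0.00041, edgeR), from counts of 29 to 46 reads in the control libraries. In Ribo-seq it went from 8.79, 6.31 and 17.7 to 29.5, 32.2 and 33.4 RPKM, a rise of 1.54 ± 0.27 (2.91-fold, adjusted p = 4.8e-07, edgeR).

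Ero1b (chromosome 13, 12565818 to 12609533), the paralog of secretory cells, was the more abundant of the pair throughout. Its mRNA fell from 199, 123 and 91.3 RPKM to 53.2, 46.8 and 37.5. The groups were apart in all 3 experiments. The change was -1.53 ± 0.24 (2.89-fold lower, adjusted p = 2.7e-07, edgeR), -1.90 relative to the median gene. Its footprints fell from 124, 93.3 and 139 to 68.5, 49.8 and 47.1 RPKM, or -1.14 ± 0.19 (adjusted p = 6.5e-08, edgeR). Both falls kept their sign and their call in all fits run other than the mRNA-seq fit without the block (adjusted p = 0.10).

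**Figure D4:**
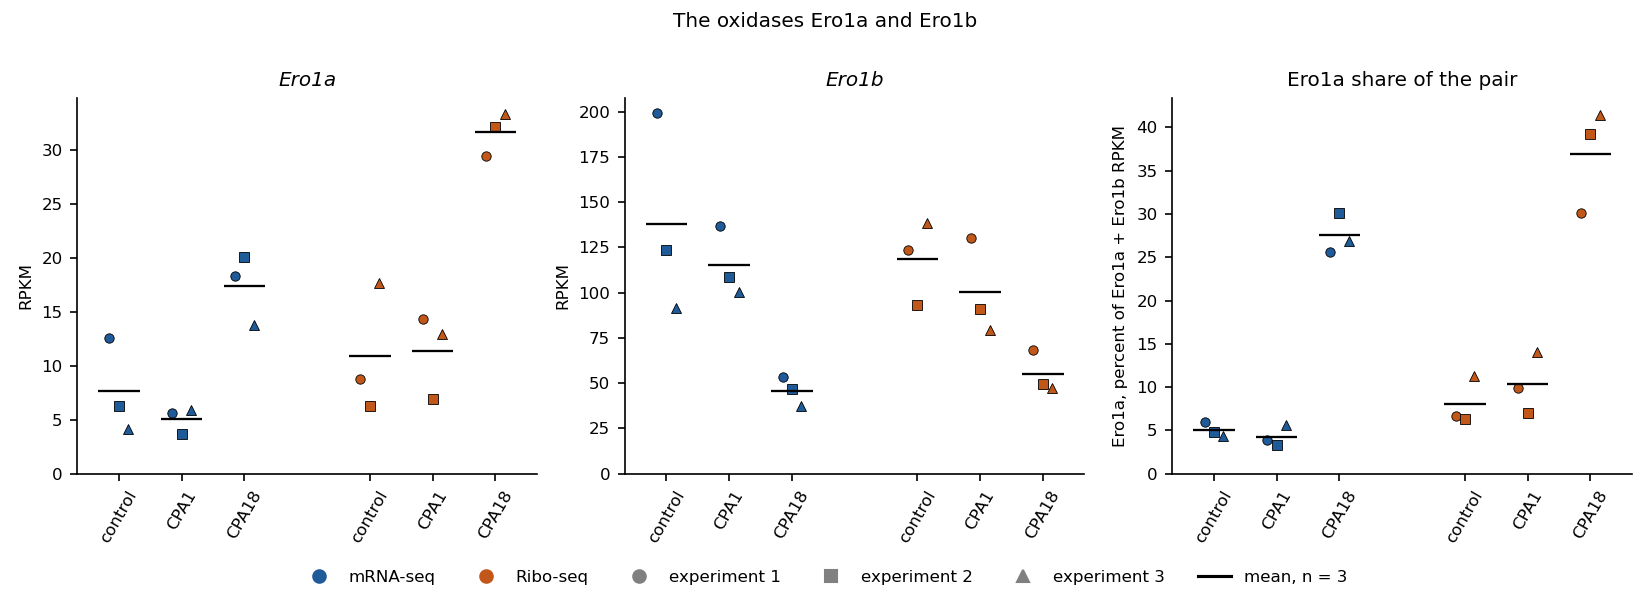
RPKM of Ero1a (left) and Ero1b (middle), and Ero1a as a percent of the sum of both (right), in every library, with 1 symbol for each experiment and a bar at the mean of 3. The Ero1a share lies between 25.6% and 41.5% in the CPA18 libraries and between 3.32% and 14% in all others.

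The ratio of the 2 oxidases is free of the library total. The log2 ratio of Ero1a to Ero1b was -3.99, -4.29 and -4.47 in the control mRNA-seq libraries and -1.54, -1.22 and -1.44 at CPA18. It differed by 2.85, with a two-sided exact permutation p of 0.1, the smallest that 3 against 3 libraries can give (0.15 after Benjamini-Hochberg over 6 such tests). In Ribo-seq the ratio went from -3.81, -3.89 and -2.97 to -1.22, -0.63 and -0.50, a difference of 2.78 (exact permutation p = 0.1, adjusted 0.15). In both assays all CPA18 libraries lay above all controls for Ero1a and below them for Ero1b. That order alone fixes the exact permutation p at 0.1, so the ratio tests at CPA18 are no separate support. At CPA1 the ratio differed from control by -0.27 in mRNA-seq and 0.38 in Ribo-seq (exact permutation p = 0.4 and 0.5). As a share of the pair, Ero1a made up 5.03 ± 0.817% of the mRNA in control cells and 27.5 ± 2.30% at CPA18. The rise of the minor paralog was smaller in RPKM than the fall of the major one, and the sum of both went from 146 ± 59.9 to 63.3 ± 10.6 RPKM in mRNA-seq and from 129 ± 28.5 to 86.8 ± 9.76 in Ribo-seq.

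After 1 h of CPA the picture was different. In mRNA-seq only Tmx1 passed, as a fall of -1.07 ± 0.29 (adjusted p = 0.042, edgeR), beside 0.719% of all genes, and it no longer passed without the control of experiment 2 (-0.51) or under 8 other alternative settings, the fit without the block included. In Ribo-seq 4 of the 10 fell, namely P4hb, Pdia3, Pdia4 and Dnajc10, and none rose, beside 6.51% of all genes (2.78% lower and 3.72% higher). These 4 were also the members whose CPA1 libraries all lay below all controls, as in 8.46% of all genes. P4hb footprints read 573, 543 and 606 RPKM at CPA1, a fall of -0.60 ± 0.15 (adjusted p = 0.0033, edgeR). Pdia3 footprints read 409.6, 388 and 321, a fall of -0.69 ± 0.16 (adjusted p = 0.00047, edgeR). These isomerases fell as shares of the library total. On the same scale Ins1 and Ins2 footprints differed by -0.079 ± 0.15 and -0.073 ± 0.16, which did not pass. Each Ribo-seq library was scaled to its own total, so a fall shared by all footprints cannot be seen here. The paper reports that protein synthesis was inhibited under CPA and partly recovered, and that proinsulin synthesis was repressed early. Whether insulin translation was spared in these libraries was not tested. Dnajc10 showed the widest spread, with 26.7, 27.9 and 42.6 RPKM in control cells against 26.1, 10.1 and 7.34, from 55, 16 and 14 reads at CPA1 (-1.24 ± 0.25, adjusted p = 8.6e-05, edgeR). Pdia4 fell by -0.52 ± 0.17 (adjusted p = 0.040, edgeR), and this was 0.051 on NM_001368756.1 alone. The Pdia4 call was also lost with no block (adjusted p = 0.17, edgeR), with no filter (0.090), and without experiment 2 (0.10) or its controls (0.089). With limma its adjusted p was 0.26. Experiment 3 moved most for each of the 4, and without it none of the 10 passed in Ribo-seq at CPA1, although all 4 estimates stayed below 0 (-0.18 to -0.62). Without the block 2 still passed (2.96% of all genes).

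None of the other changes at CPA1 passed the adjusted threshold, though the 95% intervals of Txndc5 and Pdia4 mRNA and of Tmx1 footprints did not include 0. Pdia6 footprints read 547, 494 and 617 RPKM (-0.30 ± 0.15, 95% interval -0.60 to 0.0031) and its mRNA 242, 237 and 619 RPKM (-0.062 ± 0.25), with experiment 3 above its control in mRNA and below it in footprints. Txndc5 mRNA read 26.7, 34.5 and 69.7 RPKM, below its own control in each experiment (-0.55 ± 0.25, interval -1.05 to -0.051, adjusted p = 0.69, edgeR). Pdia4 mRNA read 46.1, 47.3 and 111 RPKM (-0.78 ± 0.28, adjusted p = 0.29, edgeR), and the difference was -0.047 without the controls of experiment 2. Tmx1 footprints read 82.1, 100.1 and 64.2 RPKM, lower in experiments 1 and 3 (-0.40 ± 0.19, interval -0.78 to -0.028, adjusted p = 0.23, edgeR). Creld2 mRNA read 37.1, 72.7 and 165 RPKM, likewise lower in each experiment (-0.39 ± 0.25, adjusted p = 0.97, edgeR), while its footprints at 60.7, 61.6 and 91.9 RPKM were lower in experiments 1 and 3 only. Neither oxidase had moved by 1 h in a way the replicates shared. Ero1a mRNA read 5.64, 3.73 and 5.95 RPKM and Ero1b mRNA 137, 109 and 101 RPKM, each lower in experiments 1 and 2 and higher in experiment 3. Their footprints read 14.3, 6.89 and 12.9 RPKM for Ero1a and 130.0, 91.0 and 79.4 RPKM for Ero1b, with intervals of -0.47 to 0.66 and -0.59 to 0.071 for the log2 change.

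From CPA1 to CPA18, 7 of the 10 rose and 1 fell in mRNA-seq, beside 37.5% of all genes (31.9% higher and 5.54% lower), and without the block none passed (adjusted p from 0.059 to 0.90, edgeR; 1.77% of all genes). In Ribo-seq 8 rose and 1 fell, beside 22.5% of all genes (17% higher and 5.52% lower), and 8 of these 9 passed without the block (18.1% of all genes). Ero1b was the gene that fell in both, by -1.33 ± 0.24 in mRNA-seq (adjusted p = 5.8e-06, edgeR) and -0.88 ± 0.19 in Ribo-seq (adjusted p = 0.0001). Pdia3, which did not pass against control at CPA18, rose from its CPA1 level by 0.71 ± 0.16 in Ribo-seq (adjusted p = 0.00013, edgeR), and with TMM by 0.40 (adjusted p = 0.081). Dnajc10 footprints rose by 0.83 ± 0.29 (adjusted p = 0.026, edgeR) to 39.6, 23.1 and 18.7 RPKM, a call lost under 8 alternatives. Tmx1 passed in neither assay. Of the 10, 7 had all CPA18 Ribo-seq libraries above all CPA1 libraries and 1 below, as had 23% and 7.6% of all tested genes. In mRNA-seq this held for 5 above and 1 below, beside 15.6% and 5.03% of all genes. Ero1a rose between both times by 1.76 ± 0.31 in mRNA-seq (adjusted p = 4.1e-06, edgeR) and 1.44 ± 0.30 in Ribo-seq (adjusted p = 2.2e-05).

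Ribosome occupancy (ribo-ocp), Ribo-seq RPKM over mRNA-seq RPKM in the same experiment, asks whether footprints changed apart from the mRNA. Pdia3 had the highest, at 3.20, 5.13 and 7.92 in control cells, and Txndc5 was below or near 1 at 1.09, 0.378 and 0.661. Both levels were scaled by whole transcript length, not by coding length, so this order of genes is not an order of translation. The control ratios of some genes spread widely over the experiments, as for Tmx1 (1.58, 0.517 and 5.61) and Ero1a (0.700, 1.00 and 4.29). No member passed in any of the 3 comparisons when the change in Ribo-seq was tested against that in mRNA-seq (edgeR interaction of assay and treatment), beside 0.0898%, 0.462% and 0.077% of all genes for CPA1 against control, CPA18 against control and CPA18 against CPA1. DESeq2 and limma also called none, and the 1 call in any fit was Tmx1 at CPA1 without experiment 3. At an unadjusted p under 0.05 there was 1 member in each comparison, beside 548, 702 and 443 of the 7794 genes in the order just given. With so many genes under that limit, the 3 members that follow are given as a description only. P4hb ribo-ocp was 1.99, 1.16 and 1.14 in control cells and 1.68, 0.658 and 0.654 at CPA18, lower in each experiment (-0.64 ± 0.30, adjusted p = 0.49, edgeR). Dnajc10 at CPA1 differed by -0.94 ± 0.44 (adjusted p = 0.68, edgeR), and Creld2 between CPA18 and CPA1 by -0.69 ± 0.33 (adjusted p = 0.86, edgeR). The 95% interval for Ero1b at CPA18 ran from -0.21 to 1.01, so that changes of this size in occupancy were not resolved.

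**Figure D5:**
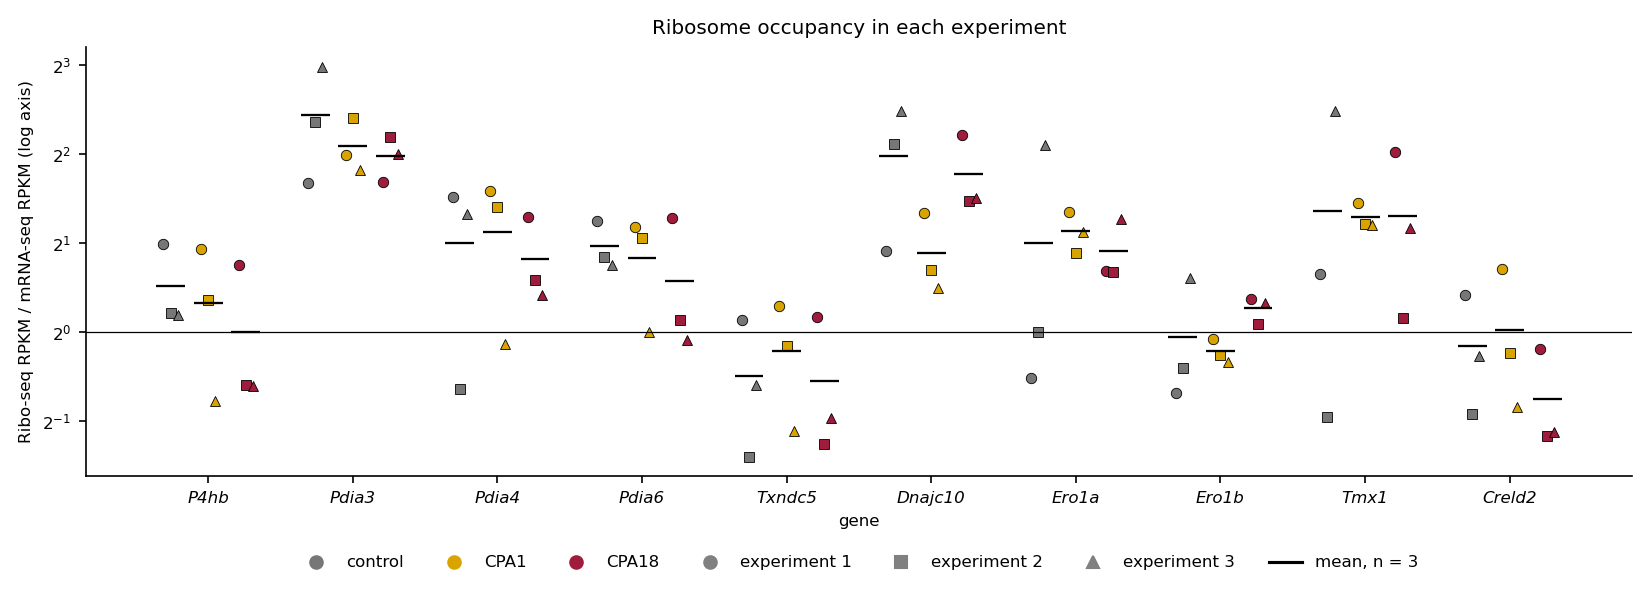
Ribosome occupancy (Ribo-seq RPKM over mRNA-seq RPKM, log axis) of the 10 genes, with colour for the treatment, 1 symbol for each experiment and a bar at the mean of 3. Pdia3 lies highest at 3.20 to 7.92 in control cells, and the Tmx1 controls spread from 0.517 to 5.61.

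The summed level of the 10 genes was 2543, 2266 and 3417 RPKM in the control Ribo-seq libraries, 2014, 1850.5 and 1934 at CPA1 and 4108, 3666 and 3942 at CPA18, 3 ranges that did not overlap. In mRNA-seq the sums were 1296, 1747 and 2026 in control cells and 2015, 3862 and 4503 at CPA18, where experiment 1 at CPA18 lay within the control range. P4hb and Pdia6 together supplied 59.3 ± 10.6% of the summed mRNA level in control cells and 66.1 ± 3.41% at CPA18, within the spread. The log2 ratio of the summed members to the sum of Ins1 and Ins2 went from -7.28 ± 0.62 to -4.29 ± 0.44 in mRNA-seq and from -7.10 ± 0.41 to -4.97 ± 0.27 in Ribo-seq. These sums and ratios are given as a description, with no test.

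Other ER genes were taken from a list of 29, of which 27 had reads and 24 could be tested. The list was drawn up around disulfide and redox chemistry but is not limited to it, as with Clptm1l, and was chosen with earlier results of these data known. At CPA18, 9 of the 24 rose and none fell in mRNA-seq (median 0.61 against 0.36 for all genes), beside 25.9% of all tested genes higher. In Ribo-seq 5 of the 24 rose and none fell (median 0.40 against 0.39), beside 24.6% of all genes higher, a share no larger than the background. At CPA1 none passed in mRNA-seq (edgeR, 0 also at an unadjusted p under 0.05) and 2 fell in Ribo-seq, Erp44, a retention factor for Ero1a (-1.01 ± 0.24), and Txndc15 (-0.91 ± 0.27), which are named because they were the only calls, beside 2.78% of all genes lower. Without the block none of the 24 passed in mRNA-seq at CPA18 (adjusted p from 0.076 to 0.98, edgeR, beside 1.98% of all genes). The 6 with the lowest adjusted p in mRNA-seq at CPA18 were Clptm1l, Selenos, Pdia5, P4ha2, Erp29 and Selenof. Selenos, a selenoprotein of the ER-associated degradation machinery, went from 71.7 ± 8.0 to 252 ± 108 RPKM in mRNA-seq (log2 change 1.77 ± 0.27) and changed by 1.84 ± 0.23 in Ribo-seq. Clptm1l, a multipass ER membrane protein, went from 89.0 ± 38.2 to 289 ± 131 RPKM (log2 change 1.69 ± 0.25) and by 1.36 ± 0.22 in Ribo-seq. Erp29, a redox-inactive relative of the isomerases, rose by 0.91 ± 0.26 and 0.90 ± 0.23 in the 2 assays. Pdia5, a further isomerase, rose by 1.31 ± 0.33 in mRNA-seq, while its Ribo-seq change of 0.88 ± 0.37 did not pass (adjusted p = 0.057, edgeR). P4ha2, a catalytic subunit of prolyl 4-hydroxylase that pairs with P4hb, rose by 1.22 ± 0.32 in mRNA-seq and differed by 0.54 ± 0.35 in Ribo-seq, which did not pass. Selenof, a selenoprotein that partners the glycoprotein folding sensor, rose by 0.88 ± 0.25 in mRNA-seq and missed the threshold in Ribo-seq at 0.49 ± 0.20 (adjusted p = 0.054, edgeR).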

How the data were processed

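MIN6 cells in 3 treatments and 3 experiments were profiled by mRNA-seq and Ribo-seq, 18 libraries in all. The authors aligned reads with Bowtie2 to the GRCm38.p6 mouse RNA reference (build and tool also in the submitters' processing notes) and deposited raw read counts and RPKM for each transcript. The RPKM were recomputed from counts, transcript length and library total and differed by at most 0.00111 on the log2 scale. Counts and RPKM of the 30741 NM_ transcripts were summed for each gene with the RefSeq table for GRCm38.p6 (30232 matched with version, 478 without, 31 not). Genes with at least 1 read in each of the 18 libraries were tested with edgeR 4.0.16 (glmQLFit, glmQLFTest), library size being the deposited total, with the experiment as a block and Benjamini-Hochberg over 7794 genes at 0.05. The labels give each experiment as a batch that holds all treatments. Libraries of the same experiment deviated together (mean r 0.57 in mRNA-seq, lowest 0.11, and mean r 0.14 in Ribo-seq, lowest 0.083, over 9 pairs each). For ribo-ocp, 1 fit over both assays compared the treatment effect in Ribo-seq with that in mRNA-seq, and experiments were blocks within each assay. SE is the log2 change over the square root of F.

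Alternatives were no block, TMM, totals without Ins1, Ins2 and Lars2, DESeq2 1.42.0, limma 3.58.1 on log2(RPKM + 0.5), other filters, transcripts read in all libraries, and leaving out each experiment or the control libraries of experiment 2. The fits were also run on counts simulated from the means and dispersions of the fit with the block. Such counts cannot show whether the block model holds for these data. Named genes were the 10 members and, of the other list, the 6 with the lowest adjusted p in mRNA-seq at CPA18. For P4hb, Ero1a and Ero1b the 3 genes with the most similar mRNA-seq profile were also named. The members and lists were chosen with earlier results of these data known. Multi-mapped reads could be counted on several transcripts of a gene, which the sources used here do not settle. The depth of a library limits low genes most. The 95% intervals come from the fitted change, its SE and a normal quantile, with the experiment as a block. The SE draws in part on the spread of other genes, so an interval can leave out the change of a single experiment. For Tmx1 mRNA at CPA18 the interval was -1.48 to -0.37, with experiment 3 at 0.48.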

Additional observations from a re-analysis of the deposited data

Results flagged for a closer look

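In 5 cases every experiment was below control after 1 h and above control after 18 h, and the difference between both times is given as CPA18 against CPA1. These signs already place CPA18 above CPA1 in every experiment, so the p-values of that difference are no separate support. How many of all tested genes show the same signs was not counted. In Ribo-seq this held for P4hb, with log2 changes of -0.60 and 0.37 and a difference of 0.97 (± 0.15, adjusted p = 1.8e-08, edgeR). On the scale of library totals the P4hb change at CPA18 was level with the median gene (-0.019 relative to it), and with TMM it was 0.0086 (adjusted p = 0.98, edgeR), so its position above control at CPA18 depends on the scale. For Pdia4 in Ribo-seq the changes were -0.52 and 1.16, and the difference 1.68 (± 0.17, adjusted p = 1.9e-18, edgeR). For Pdia6 in Ribo-seq they were -0.30, which did not pass, and 0.87, and the difference 1.17 (± 0.16, adjusted p = 1.2e-11, edgeR). In mRNA-seq Txndc5 changed by -0.55, which did not pass, and 1.36, with a difference of 1.91 (± 0.25, adjusted p = 8.6e-10, edgeR). Creld2 changed by -0.39, which did not pass, and 2.08 in mRNA-seq, with a difference of 2.47 (± 0.25, adjusted p = 3.1e-14, edgeR). The Txndc5 and Creld2 differences did not pass without the replicate block (adjusted p = 0.074 and 0.059). With 3 libraries in each group, single libraries could not be tested for standing apart.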

How the results depend on the processing

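Counts of members that passed in mRNA-seq at CPA1 went from 1 to 0 with no replicate block, TMM, totals without Ins1, Ins2 and Lars2, DESeq2, limma or filterByExpr, and ranged from 0 to 2 when an experiment or the control of experiment 2 was left out. With no replicate block the 8 members that passed in mRNA-seq became 0 at CPA18 and 0 between CPA18 and CPA1, and the 4 in Ribo-seq at CPA1 became 2, as they did with limma, and over all genes the mRNA-seq calls at CPA18 went from 2617 to 154 and those between CPA18 and CPA1 from 2922 to 138. Leaving out libraries gave 5 to 7 members in mRNA-seq at CPA18 (5 without experiment 3), 0 to 4 in Ribo-seq at CPA1 (0 without experiment 3) and 0 to 1 in ribo-ocp at CPA1 (Tmx1 without experiment 3). Over all genes, mRNA-seq calls at CPA18 were 990 without experiment 3, 1635 without experiment 2 and 1460 without its controls, those between CPA18 and CPA1 were 1783 with DESeq2, 1450 without experiment 2 and 1678 without experiment 3, and the 56 at CPA1 ranged from 0 with no replicate block to 166 without experiment 3. In Ribo-seq over all genes the 507 calls at CPA1 fell to 231 with no replicate block, 216 with limma and 236 to 309 when libraries were left out, the 2409 at CPA18 to 1117 with DESeq2 and 1473 without experiment 2, and the 1753 between CPA18 and CPA1 to 1006 and 1132. In ribo-ocp the calls over all genes were 7 at CPA1 (0 to 73 over the other settings), 36 at CPA18 (3 to 121) and 6 between CPA18 and CPA1 (0 to 38). The number of genes tested differed between settings. The 121 were of 17207 genes with no filter, and the 38 of 541 genes with an adjusted p in DESeq2. The DESeq2 counts given for mRNA-seq and Ribo-seq also rest on fewer than 7794 genes. The split into higher and lower calls moved with the scale between CPA18 and CPA1, from 2490 and 432 to 982 and 1296 with TMM in mRNA-seq and from 1323 and 430 to 691 and 794 in Ribo-seq. The Ero1a to Ero1b ratio kept its direction in every fit, and with the replicate block (sign-flip within experiments) its difference at CPA18 in mRNA-seq stayed at 2.85 with p = 0.25, the smallest 3 pairs can give in an exact test. That value was likewise fixed by the opposite changes of Ero1a and Ero1b.

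The sign of a change turned in the following cases, in which neither fit passed the threshold. With DESeq2 the log2 changes became Pdia3 -0.33 in Ribo-seq at CPA18, Pdia6 0.016 in mRNA-seq at CPA1, Dnajc10 -0.28 and Tmx1 -0.28 in mRNA-seq at CPA18 over CPA1, Creld2 -0.020 in ribo-ocp at CPA1. With Pdia4 on 1 transcript the log2 changes became Pdia4 -0.26 in ribo-ocp at CPA1, Pdia4 -0.58 in ribo-ocp at CPA18. With TMM the log2 changes became Pdia3 -0.34 in Ribo-seq at CPA18, Pdia3 0.010 in ribo-ocp at CPA18 over CPA1, Pdia6 0.055 in mRNA-seq at CPA1, Dnajc10 -0.35 and Tmx1 -0.37 in mRNA-seq at CPA18 over CPA1, Creld2 -0.036 in ribo-ocp at CPA1. With no replicate block the log2 changes became Pdia6 0.0096 in mRNA-seq at CPA1, Ero1b 0.011 and Creld2 -0.046 in ribo-ocp at CPA1, Tmx1 0.0086 in Ribo-seq at CPA18 over CPA1. With totals without Ins1, Ins2 and Lars2 the log2 changes became Pdia3 -0.17 in Ribo-seq at CPA18, Pdia3 0.12, Pdia4 0.057, Tmx1 0.077 in ribo-ocp at CPA18 over CPA1, Pdia6 0.14 and Ero1b 0.033 in mRNA-seq at CPA1, Dnajc10 -0.25 and Tmx1 -0.27 in mRNA-seq at CPA18 over CPA1, Creld2 -0.12 in ribo-ocp at CPA1. Leaving out an experiment, or the control libraries of experiment 2, turned the sign of others, and their log2 changes then covered the ranges given here. In Ribo-seq at CPA1 the ranges were Ero1a -0.24 to 0.51, Ero1b -0.43 to 0.021. In Ribo-seq at CPA18 the ranges were Pdia3 -0.090 to 0.21, Dnajc10 -0.81 to 0.15. In Ribo-seq at CPA18 over CPA1 the ranges were Tmx1 -0.34 to 0.38. In mRNA-seq at CPA1 the ranges were Pdia4 -1.35 to 0.092, Pdia6 -0.25 to 0.10. In mRNA-seq at CPA18 the ranges were Dnajc10 -0.45 to 0.078. In ribo-ocp at CPA1 the ranges were P4hb -0.53 to 0.037, Pdia3 -0.57 to 0.18, Pdia4 -0.73 to 1.19, Pdia6 -0.43 to 0.056, Txndc5 -0.21 to 0.66, Ero1a -0.18 to 1.42, Ero1b -0.41 to 0.39, Tmx1 -0.26 to 1.53, Creld2 -0.20 to 0.47. In ribo-ocp at CPA18 the ranges were Pdia4 -0.76 to 0.68, Txndc5 -0.35 to 0.048, Dnajc10 -0.87 to 0.25, Ero1a -0.21 to 0.90, Tmx1 -0.20 to 1.35. In ribo-ocp at CPA18 over CPA1 the ranges were P4hb -0.59 to 0.0039, Pdia4 -0.51 to 0.11, Pdia6 -0.49 to 0.020, Txndc5 -0.62 to 0.022, Tmx1 -0.55 to 0.22. The setting with Pdia4 on 1 transcript was chosen after seeing the data. Low counts, such as 14 footprints of Dnajc10 in 1 library, limit these estimates.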

Other observations

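Genes outside both lists were ranked by how closely their mRNA level followed that of 3 members over the 9 mRNA-seq libraries (Pearson r of log2(RPKM + 0.5), a description of libraries that share treatments and depths). For Ero1b they were Scg2 (0.991), Slc30a8 (0.988), Mapt (0.987). Scg2 encodes a granin of secretory granules and Slc30a8 the zinc transporter of insulin granules, and their means in control, CPA1 and CPA18 were 1119.9, 747 and 243 RPKM and 165, 149.6 and 67.8 RPKM. For Ero1a they were Tvp23b (0.968), Dnajb9 (0.965), Kdsr (0.965), of which Dnajb9 encodes an ER co-chaperone of BiP and had 20.5, 13.7 and 59.1 RPKM. For P4hb they were Psma5 (0.996), Eef1aknmt (0.996), Abcb6 (0.995), of which Psma5 encodes a proteasome subunit and had 92.4, 80.8 and 164 RPKM. Among the 10 members themselves P4hb, Pdia6, Txndc5 and Creld2 had pairwise r from 0.96 to 0.98, Pdia3 and Ero1a 0.91, and Ero1b with Creld2 -0.92.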
